A study of Mus musculus with 6 samples.

Results

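The genes described here are 40 genes of the Wnt pathway, taken by name from the 55471 genes of a count table of hippocampal RNA: 8 secreted ligands, 8 frizzled receptors, 6 co-receptors and other receptors, 3 dishevelled genes, 6 genes of the beta-catenin destruction complex, Ctnnb1, 3 TCF/LEF factors, 3 genes of secreted inhibitor families and 2 naked cuticle genes. RNA-seq was performed on 3 Control and 3 CBP-ifKO samples of mice aged 3 to 6 months, whose strain is C57BL/6 in the labels and C57BL/6J in the study's methods. Both groups had received 5 intragastric administrations of tamoxifen (20 mg/mL in corn oil). In CBP-ifKO mice (Crebbp_flox;Camk2a_creERT2), tamoxifen activates a Cre recombinase driven by the Camk2a promoter, so that the KAT activity of CBP is lost from forebrain excitatory neurons while interneurons, glia and vessels keep it. The study's methods describe each sample as hippocampi pooled from several females, so p-values measure only the spread between these pools and not that between single mice. Control mice are described as littermates without the Cre transgene in the design text, although the short description of their samples reads Camk2a_creERT2. Esr1, part of which is in the recombinase, was at 6.29, 6.27 and 5.65 CPM in the Control libraries and at 67.0, 69.4 and 63.6 CPM in the CBP-ifKO libraries.

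Wnt ligands are secreted lipid-modified proteins that bind frizzled receptors together with the co-receptors LRP5 and LRP6. Without ligand, a cytoplasmic complex of Axin, APC and GSK3 marks beta-catenin for degradation. With ligand, dishevelled recruits this complex to the receptor, and beta-catenin accumulates, enters the nucleus and joins TCF/LEF factors at target genes, where CBP and its paralogue p300 serve as coactivators. Other branches of the pathway act through ROR and RYK receptors and the planar cell polarity proteins. In the hippocampus, Wnt signalling is known for its roles in dendrite growth, synapse formation and the production of granule cells.

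Total counts ran from 10199008 to 14950257 per library. Levels are given as CPM, counts relative to library size with TMM scaling, as mean ± SD over 3 libraries, or as CPM per kb of exon where genes are compared with each other. Crebbp, the targeted gene, was at 208.6, 156.4 and 208.5 CPM in Control replicates 1 to 3 and at 108.6, 87.1 and 99.4 CPM in CBP-ifKO replicates 1 to 3, which is 51.5% of the Control mean (log2 fold change -0.96, SE 0.10, adjusted p 3.63e-05 by edgeR). Across the 17981 genes that passed the filter on low counts, edgeR's quasi-likelihood test called 1149 (6.39%) at an adjusted p under 0.05, 897 lower (4.99%) and 252 higher (1.4%) in CBP-ifKO. DESeq2, the tool of the study, gave an adjusted p for 13100 genes and called 953 of them (7.27%).

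The Wnt pathway genes called in this comparison were 4 ligands, Wnt2, Wnt4, Wnt7b and Wnt9a, together with Apc2 and Dkk3, and each of the 6 fell in CBP-ifKO. No receptor, co-receptor or dishevelled gene was called, nor were Ctnnb1 and the TCF/LEF factors, and no member was called higher. Of the 40 genes 36 passed the filter on low counts, so the 6 calls were 16.7% of those tested, against 6.39% of all genes. The 40 genes were chosen with earlier results of these data known, which may have raised this share. Wnt10a, Ror2, Tcf7l1 and Sfrp2 were too low to test. At an unadjusted p under 0.05 there were 12 of the 36, beside 21.2% of all genes tested. The median log2 fold change of the 36 was -0.10, against -0.0033 over all genes tested, and 27 of them were negative and 9 positive.

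The calls lay unevenly among the roles. Ligands made up 4 of the 6 calls, with 4 of 7 tested ligands called (57.1%). Of the 29 other tested members 2 were called (6.9%), a share close to that of all genes. Outside the 40 genes, 3 more ligands were tested and none was called. Their log2 fold changes were 0.029 (Wnt2b), -0.31 (Wnt3) and 0.40 (Wnt16). Wnt4, Wnt7b and Wnt9a are also on the study's own list of lower genes. That list kept genes retrieved in each of 3 RNA-seq experiments that the study describes as independent. These samples were 1 of the 3, so the list is only partly independent evidence of their direction. Without Wnt4, Wnt7b and Wnt9a, 3 of 33 tested members were called (9.09%). Leaving out called genes can only lower this share, and the 6.39% of all genes still includes the study's listed genes. In 12 of the 36 tested members the 3 CBP-ifKO libraries were all below the 3 Control libraries, and in 1, Fzd5, every one was above. The corresponding shares of all genes tested were 13.9% and 11.8%. The call rates of roles were not tested against each other. Because the members, ligands included, were chosen with earlier results of these data known, their shares are not independent of that choice.

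**Figure D1:**
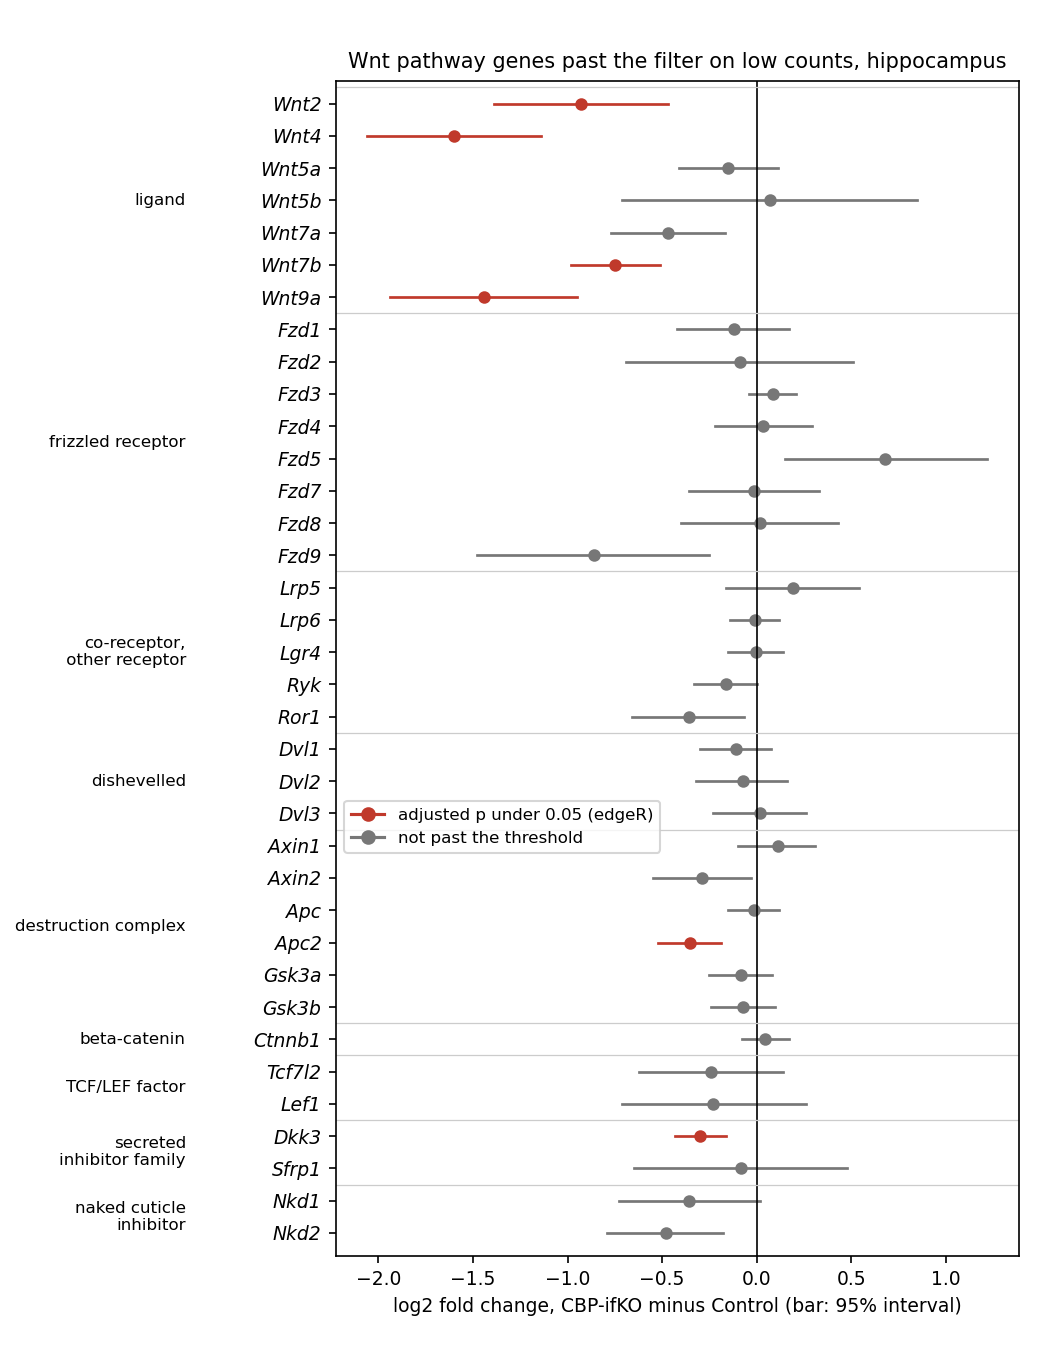
Log2 fold change (CBP-ifKO minus Control) of the 36 Wnt pathway genes past the filter on low counts, grouped by role, where points are the estimates of edgeR and bars their 95% intervals. The 6 genes past the threshold are in red and lie below 0, from -1.6 for Wnt4 to -0.3 for Dkk3, while frizzled receptors spread from -0.86 to 0.68 with none past it.

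Among the ligands, Wnt4 fell the most. In Control replicates 1 to 3 it was at 7.98, 5.07 and 7.64 CPM, and in CBP-ifKO replicates 1 to 3 at 2.33, 2.50 and 1.89 CPM. The groups were far apart, with the lowest Control library still well above the highest CBP-ifKO library. The CBP-ifKO levels rest on few reads, with counts of 24, 38 and 23, against 85, 59 and 77 in Control. The mean fell from 6.89 ± 1.59 to 2.24 ± 0.312 CPM (SD, n = 3), to 32.5% of Control, with a log2 fold change of -1.6 (SE 0.22, 95% interval -2.06 to -1.14, edgeR adjusted p 0.000335). Wnt4 lies on chromosome 4 of GRCm38, from 137277489 to 137299726, on the plus strand.

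Wnt9a, on chromosome 11 (59306928 to 59333552, plus strand), was at 6.67, 13.0 and 8.13 CPM in the Control libraries and at 4.36, 3.09 and 2.96 CPM in the CBP-ifKO libraries. Control replicate 2 was the highest of the 6 libraries and the groups did not overlap. The level fell from 9.26 ± 3.30 to 3.47 ± 0.774 CPM (SD, n = 3), or 37.5% of Control (log2 fold change -1.44, SE 0.24, 95% interval -1.94 to -0.95, edgeR adjusted p 0.00134). Without Control replicate 2 the log2 fold change was -1.1 and the call held (edgeR adjusted p 0.00209).

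Wnt2, on chromosome 6 (17988940 to 18030585, minus strand), was at 4.32, 4.72 and 4.17 CPM in Control and at 1.74, 2.83 and 2.22 CPM in CBP-ifKO. All 3 CBP-ifKO libraries were lower than the Control libraries, which lay close together. The mean fell from 4.4 ± 0.289 to 2.26 ± 0.542 CPM (SD, n = 3), to 51.4% of Control (log2 fold change -0.93, SE 0.22, 95% interval -1.39 to -0.47, edgeR adjusted p 0.0164). These levels rest on few reads, with counts of 46, 55 and 42 in Control and 18, 43 and 27 in CBP-ifKO. The call was lost without CBP-ifKO replicate 1 (log2 fold change -0.79, edgeR adjusted p 0.0604) or replicate 3 (-0.89, adjusted p 0.0744).

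Wnt7b, the ligand with the highest level per length in Control, is known in the nervous system for promoting dendrite growth and, with Wnt7a, for guiding brain vessels. It lies on chromosome 15 (85535437 to 85582473, minus strand). The Control libraries had 24.3, 29.5 and 24.7 CPM and the CBP-ifKO libraries 17.4, 14.3 and 15.5 CPM, without overlap. The mean went from 26.2 ± 2.87 to 15.7 ± 1.61 CPM (SD, n = 3), which is 60.1% of Control (log2 fold change -0.75, SE 0.11, 95% interval -0.98 to -0.51, edgeR adjusted p 0.000685). Of its exon bases 6.61% are shared with AU022754 on the other strand, and whether the counting used strand was not given in the sources used here.

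**Figure D2:**
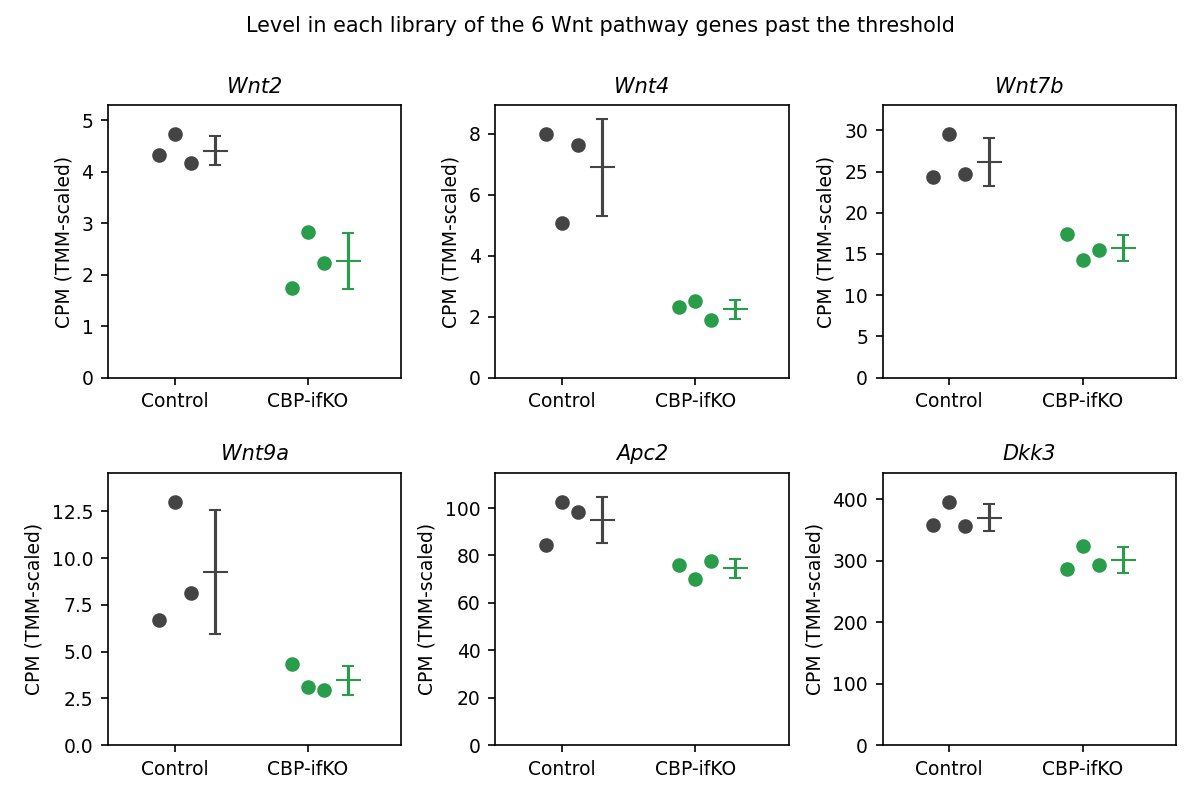
CPM in each library for the 6 Wnt pathway genes past the threshold, with the 3 libraries of a group as points in the order of their replicate numbers and, to their right, the mean with the SD as a bar. In every panel the CBP-ifKO points lie below the Control points. Relative to Control, the mean fell the most for Wnt4 (to 32.5%) and the least for Dkk3 (to 81.4%).

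Wnt7a, the closest paralogue of Wnt7b, stayed short of the threshold. It was at 10.8, 8.85 and 11.6 CPM in Control and at 7.27, 7.56 and 7.65 CPM in CBP-ifKO, so the groups did not overlap (log2 fold change -0.47, SE 0.14, 95% interval -0.77 to -0.17, edgeR adjusted p 0.0588). Without Control replicate 2, the lowest of the Control libraries, it passed (log2 fold change -0.57, adjusted p 0.0188). Wnt5a, which signals mainly through the branches that do not use beta-catenin, had a log2 fold change of -0.15 (95% interval -0.41 to 0.11, edgeR adjusted p 0.544). For Wnt5b the estimate of 0.069 had an interval of -0.71 to 0.85, so that a difference of the size measured for Wnt7a, in either direction, lies within it. Wnt10a, left out of the test for its low counts, was at 1.13, 1.89 and 0.793 CPM in Control and at 0.581, 0.789 and 0.576 CPM in CBP-ifKO.

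Per kb of exon, the order of the ligands in Control was Wnt7b (5.34 CPM per kb), Wnt7a (3.28), Wnt9a (2.78), Wnt2 (1.95), Wnt4 (1.64), Wnt5a (1.48), Wnt10a (0.515) and Wnt5b (0.433). The neighbours Wnt7a and Wnt9a differed by less than the SD of Wnt9a (0.991 CPM per kb), Wnt4 differed from Wnt2 and from Wnt5a by less than its own SD (0.38), and Wnt10a from Wnt5b by less than either SD (0.228 and 0.187). In CBP-ifKO, Wnt7b (3.21) and Wnt7a (2.36) still led, while Wnt5a (1.32) came next, above Wnt9a (1.04), Wnt2 (1.0) and Wnt4 (0.534). The sum over the 8 ligands was 16.5, 18.8 and 17.0 CPM per kb in the Control libraries and 10.4, 10.1 and 10.1 CPM per kb in the CBP-ifKO libraries, or 58.6% of Control. The 4 ligands called went to 49.4% of their Control sum, a value their selection fixes in direction. The 4 others went to 77.4% (5.71 ± 0.126 against 4.42 ± 0.235 CPM per kb). Most of this was Wnt7a, which went from 3.28 to 2.36 CPM per kb. Wnt5a went from 1.48 to 1.32, the untested Wnt10a from 0.515 to 0.263 and Wnt5b from 0.433 to 0.468 CPM per kb. Wnt2b, a ligand outside these 8, was at 1.27 CPM per kb in Control and at 1.31 CPM per kb in CBP-ifKO.

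**Figure D3:**
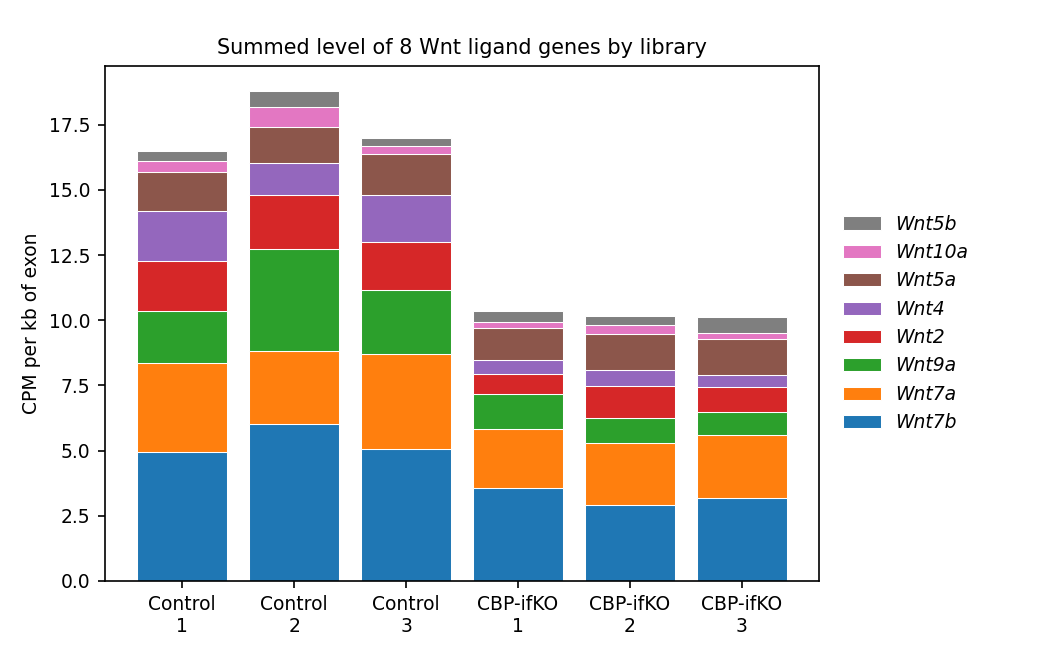
Summed level of the 8 Wnt ligand genes in each of the 6 libraries, in CPM per kb of exon, with 1 colour per gene, stacked from the highest ligand in Control (Wnt7b) to the lowest (Wnt5b). The Control bars reach 16.5 to 18.8 CPM per kb and the CBP-ifKO bars 10.1 to 10.4 CPM per kb, with the Wnt9a, Wnt2 and Wnt4 segments the ones most reduced relative to Control among those past the threshold.

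Promoter sequences are shown for the 3 ligands called for which a window was at hand. The windows are from RefSeq, run 5′ to 3′ on the gene's strand in GRCm38.p6 from 250 bases before the start site to 50 bases after it, and capitals mark the 50 bases from the start site on. They are Wnt2 at chr6:18030396-18030695 on the minus strand, Wnt4 at chr4:137277385-137277684 on the plus strand and Wnt9a at chr11:59306680-59306979 on the plus strand.
Wnt2: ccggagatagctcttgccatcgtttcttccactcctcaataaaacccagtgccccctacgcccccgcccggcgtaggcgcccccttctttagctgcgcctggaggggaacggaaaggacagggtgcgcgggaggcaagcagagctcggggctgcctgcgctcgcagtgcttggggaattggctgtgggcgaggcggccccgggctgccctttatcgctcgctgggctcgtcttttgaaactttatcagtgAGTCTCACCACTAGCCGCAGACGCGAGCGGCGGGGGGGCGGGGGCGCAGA
Wnt4: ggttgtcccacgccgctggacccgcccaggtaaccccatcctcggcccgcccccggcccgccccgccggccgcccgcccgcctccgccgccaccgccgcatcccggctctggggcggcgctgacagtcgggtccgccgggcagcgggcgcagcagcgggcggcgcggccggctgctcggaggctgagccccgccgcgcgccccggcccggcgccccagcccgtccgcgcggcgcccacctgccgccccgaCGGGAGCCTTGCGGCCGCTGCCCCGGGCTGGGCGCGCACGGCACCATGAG
Wnt9a: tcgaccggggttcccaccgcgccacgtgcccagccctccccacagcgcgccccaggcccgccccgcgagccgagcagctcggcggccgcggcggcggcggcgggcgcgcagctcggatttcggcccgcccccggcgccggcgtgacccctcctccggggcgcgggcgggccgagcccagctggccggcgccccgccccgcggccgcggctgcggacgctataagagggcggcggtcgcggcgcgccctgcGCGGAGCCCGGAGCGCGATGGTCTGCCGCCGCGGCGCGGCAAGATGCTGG
These 3 windows are rich in G and C, with 65.7%, 84.3% and 83.3% against a median of 52.7% over all windows, and hold 27, 51 and 58 CpG dinucleotides. The RefSeq start sites lie 140, 146 and 2 bases from the 5′ ends of the genes in the GENCODE annotation. On either strand, none of the 3 holds the letters bound by TCF/LEF factors, searched as CTTTGAA and CTTTGAT, or those of the cyclic AMP response element bound by CREB, to which CBP binds, searched as the full TGACGTCA and the partial TGACG that it contains. Among 32851 windows, 8.65% hold either TCF/LEF motif, 1.79% the full element and 20.8% the partial one. For 28 of the 40 genes there were 38 windows, since some genes have several start sites. A TCF/LEF motif was found in 2 of the 38 (1 of Gsk3a and 1 of Wnt5b), the partial element in 5 (1 each of Ctnnb1, Dvl1, Gsk3a, Ror1 and Tcf7l2) and the full element in 1 (Dvl1). None of these genes was called.

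The 8 frizzled receptors, which bind the ligands, were not called in either direction. Fzd3, known for axon guidance, was by far the highest of them per length in Control (19.6 CPM per kb) and had a log2 fold change of 0.086 (95% interval -0.041 to 0.21). Fzd1, Fzd4 and Fzd7 had log2 fold changes of -0.12, 0.035 and -0.015, and Fzd2 and Fzd8, with wider intervals, of -0.09 and 0.016. As a sum, the 8 genes were at 28.7, 27.1 and 28.4 CPM per kb in Control and at 27.6, 29.6 and 29.2 CPM per kb in CBP-ifKO. This is 102.6% of Control, and the groups overlapped.

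In Fzd9 and Fzd5, both at low levels, the libraries separated in opposite directions. Fzd9 was at 2.16, 2.49 and 2.08 CPM in Control and lower in CBP-ifKO, at 1.55, 0.854 and 1.40 CPM (log2 fold change -0.86, SE 0.29, adjusted p 0.0895 by edgeR). Fzd5 was at 1.69, 1.63 and 1.39 CPM in Control and at 2.91, 2.43 and 2.30 CPM in the CBP-ifKO libraries (log2 fold change 0.68, SE 0.25, adjusted p 0.125 by edgeR). It was the only member with the CBP-ifKO libraries all above Control, and shares 17.83% of its exon bases with Gm38058 on the other strand.

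Among the co-receptors, Lrp6 was measured with precision and its log2 fold change of -0.011 had an interval of -0.14 to 0.12. Lrp5, at a lower level, gave 0.19 (95% interval -0.16 to 0.54). Lgr4, a receptor for R-spondins that protects frizzled receptors from turnover, gave -0.005 (95% interval -0.15 to 0.14). Ror1 and Ryk, receptors of the branches without beta-catenin, were each lower in every CBP-ifKO library but not past the threshold. Ror1 was at 12.9, 9.88 and 11.3 CPM in Control and at 9.11, 9.46 and 7.82 CPM in the CBP-ifKO libraries (log2 fold change -0.36, edgeR adjusted p 0.142). Ryk went from 42.8, 39.6 and 37.8 CPM to 36.3, 36.4 and 34.6 CPM, a small and narrowly separated difference (log2 fold change -0.16, edgeR adjusted p 0.245). Ror2 was below 1 CPM in every library.

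The genes of the intracellular pathway were mostly at high levels. Ctnnb1, which encodes beta-catenin, was at 360.6, 395.5 and 374.4 CPM in Control and at 372.1, 408.2 and 386.8 CPM in CBP-ifKO. The groups overlapped, and the log2 fold change of 0.046 had an interval of -0.078 to 0.17 (edgeR adjusted p 0.718). Ulk4 on the other strand shares 14.62% of its exon bases. The dishevelled genes, which relay the signal from the receptor, had log2 fold changes of -0.11 (Dvl1), -0.075 (Dvl2) and 0.017 (Dvl3).

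In the destruction complex, Apc2 fell and the other 5 genes were not called. Apc2, the APC paralogue expressed mainly in neurons, lies on chromosome 10 (80295977 to 80318263, plus strand). It was at 84.2, 102.5 and 98.4 CPM in Control and at 76.0, 70.0 and 77.6 CPM in CBP-ifKO, so that the groups did not overlap. The mean fell from 95 ± 9.58 to 74.5 ± 4.0 CPM (SD, n = 3), or to 78.4% (log2 fold change -0.35, SE 0.077, 95% interval -0.52 to -0.19, edgeR adjusted p 0.0107). The transcript of Apc2 has a GC content of 61.44%, and over all genes the median log2 fold change was 0.062 in the lowest of 4 equal groups by GC content and -0.11 in the highest. With offsets for the GC content and length of genes in each library, the value for Apc2 was -0.11 and the call was lost (edgeR adjusted p 0.293). It was also lost without Control replicate 3 (adjusted p 0.0729) or CBP-ifKO replicate 2 (adjusted p 0.0801).

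Apc itself had a log2 fold change of -0.016 (95% interval -0.15 to 0.12), and the scaffold Axin1 one of 0.11. The kinase genes Gsk3a and Gsk3b gave -0.085 and -0.072, and 28.28% of the exon bases of Gsk3a are shared with 9130221H12Rik on the other strand. Axin2, at once a part of this complex and a widely used target gene of beta-catenin, was at 17.5, 22.5 and 21.1 CPM in Control and at 14.8, 15.7 and 19.4 CPM in CBP-ifKO. The highest CBP-ifKO library lay above the lowest Control library. Its log2 fold change was -0.29 (SE 0.12, 95% interval -0.55 to -0.028), with an unadjusted p of 0.0322 and an adjusted p of 0.187 in edgeR's test.

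The TCF/LEF factors, which bring beta-catenin to DNA, were at low levels. Lef1 was at 5.63, 3.86 and 5.16 CPM in Control and at 5.81, 3.09 and 3.87 CPM in CBP-ifKO, a log2 fold change of -0.23 (95% interval -0.71 to 0.26, edgeR adjusted p 0.629). The groups overlapped, with CBP-ifKO replicate 1 the highest of all libraries. Tcf7l2 gave -0.24 (95% interval -0.62 to 0.14, edgeR adjusted p 0.486), and Tcf7l1 was below 1 CPM in every library. Intervals of this width do not exclude differences as large as that of Apc2.

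Secreted inhibitor families were led by Dkk3, which had the highest level per length of the 40 genes in Control (110.1 CPM per kb). DKK3 belongs by sequence to the dickkopf family, whose other members block LRP5 and LRP6, whereas its own part in Wnt signalling is less clear. Dkk3 lies on chromosome 7 (112116017 to 112159057, minus strand). It was at 357.4, 395.3 and 356.4 CPM in Control and at 286.2, 324.4 and 292.2 CPM in CBP-ifKO, without overlap. The mean went from 369.7 ± 22.2 to 300.9 ± 20.6 CPM (SD, n = 3), or 81.4% of Control (log2 fold change -0.3, SE 0.064, 95% interval -0.43 to -0.16, edgeR adjusted p 0.00989). The call was lost without CBP-ifKO replicate 1 (-0.26, adjusted p 0.0519) or replicate 3 (-0.26, adjusted p 0.0903). Sfrp1, whose product binds ligands, gave -0.084 (95% interval -0.65 to 0.48), and Sfrp2 was below 1 CPM in every library.

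Nkd1 and Nkd2 encode dishevelled-binding inhibitors and are themselves induced by Wnt signalling. Nkd2 was at 10.7, 8.85 and 12 CPM in Control and at 7.46, 8.02 and 6.91 CPM in CBP-ifKO. Every CBP-ifKO library was below Control, and the log2 fold change was -0.48 (SE 0.15, adjusted p 0.0592 by edgeR). Without Control replicate 2, or with no filter on low counts, Nkd2 passed the threshold (adjusted p 0.018 and 0.0428). Nkd1 was at 4.41, 5.84 and 5.55 CPM in Control and at 4.17, 4.01 and 4.20 CPM in CBP-ifKO, again without overlap (log2 fold change -0.36, SE 0.18, adjusted p 0.26 by edgeR).

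**Figure D4:**
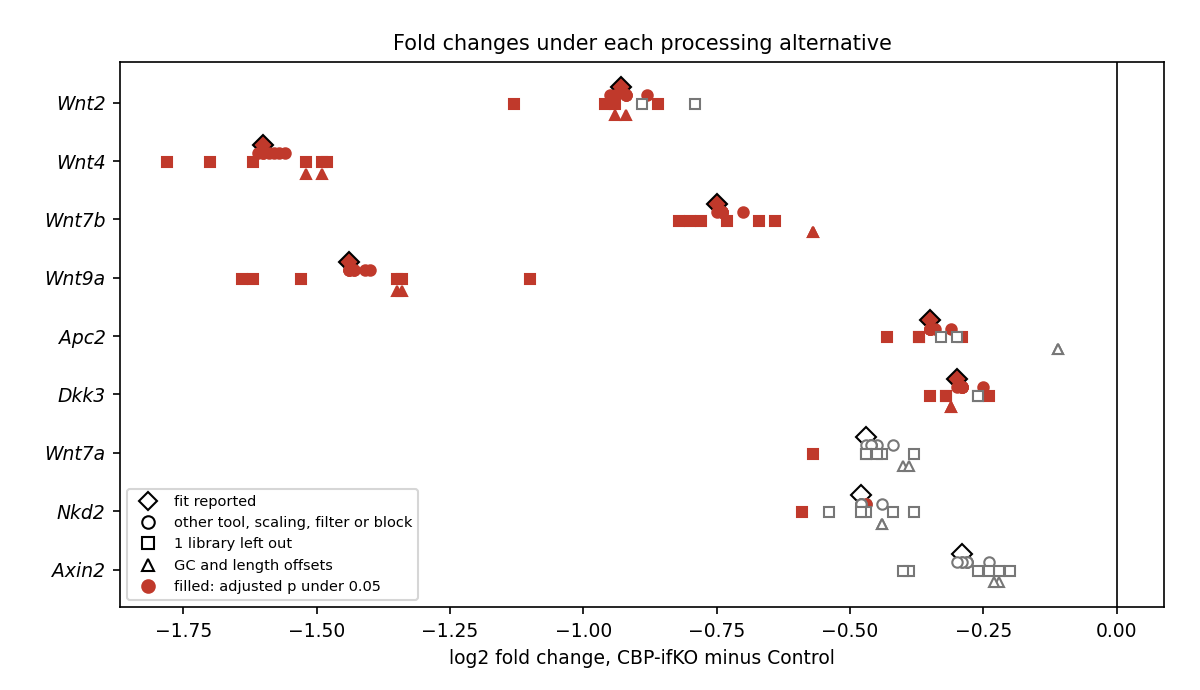
Log2 fold change (CBP-ifKO minus Control) of the 6 genes past the threshold and of Wnt7a, Nkd2 and Axin2 in the reported fit (diamonds) and each alternative, where filled symbols have an adjusted p under 0.05. Wnt4, Wnt7b and Wnt9a are filled throughout, Apc2 moves from -0.35 to -0.11 with GC and length offsets (triangles), and no symbol crosses 0.

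Nkd1, Nkd2, Axin2 and Lef1 are part of a list of 15 established Wnt target genes. Of the 12 tested, 1 was called, Ccnd1, which encodes cyclin D1. It was at 24.8, 30.5 and 27.8 CPM in Control and at 19.3, 17.7 and 18.4 CPM in CBP-ifKO, lower in all 3 libraries (log2 fold change -0.59, SE 0.10, adjusted p 0.00193 by edgeR). LTO1 on the other strand shares 23.36% of its exon bases. The call of Ccnd1 was not checked under the processing alternatives. In the list, 11 log2 fold changes were negative and 1 positive, with a median of -0.32, and 7 of the 12 had CBP-ifKO libraries all below Control, beside 13.9% of all genes. The share called, 8.33%, was near that of all genes. Tcf7, Rnf43, Znrf3, Lgr5, Notum, Apcdd1 and Dkk1 of this list are also among the other pathway genes described next. The lists therefore overlap and are not separate evidence.

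Beyond the 40 genes, 88 other genes of the pathway were examined, of which 67 were tested. Called were 8 genes, each lower and none higher (11.9%, against 4.99% lower among all genes). This list, like the members, was chosen with earlier results of these data known. At an unadjusted p under 0.05 there were 20 of the 67, beside 21.2% of all genes, and the median log2 fold change was -0.065. The other ligands (3 tested), the ligand processing genes (2) and the other secreted inhibitors (4) had no call. Porcn, which acylates ligands, and Wls, which carries them to the surface, gave 0.10 and -0.02.

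Rspo3, a secreted R-spondin that acts through LGR receptors to strengthen Wnt signalling, was at 15.4, 14.9 and 14.4 CPM in Control and at 9.30, 9.0 and 8.72 CPM in CBP-ifKO. Replicates within a group lay close together and the groups were wide apart (60.4% of Control, log2 fold change -0.73, SE 0.12, adjusted p 0.00122 by edgeR). Gm48159 shares 13.07% of its exon bases. Its relative Rspo2 was not past the threshold in the fit reported (log2 fold change -0.34, edgeR adjusted p 0.065). With offsets for GC content and length Rspo2 passed (-0.37, edgeR adjusted p 0.0401). Frat1, which binds GSK3 and keeps it from Axin, went from 14.0, 13.0 and 14.3 CPM to 7.66, 9.53 and 7.82 CPM (log2 fold change -0.71, edgeR adjusted p 0.00343). Ccdc88c, which encodes the dishevelled-binding protein Daple, and Csnk1g2, a casein kinase of the family that phosphorylates LRP6, had log2 fold changes of -0.49 and -0.48 (edgeR adjusted p 0.000671 and 0.0048).

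The remaining 4 were nearer the threshold. Bcl9l, a beta-catenin coactivator, and Tle3, a corepressor that binds TCF factors, gave -0.44 and -0.34 (edgeR adjusted p 0.0419 and 0.043). Celsr2 and Prickle1, of the planar cell polarity branch, gave -0.3 and -0.28 (edgeR adjusted p 0.0449 and 0.0322). Of the 15 alternatives, Bcl9l kept its call in 6, Tle3 in 7, Celsr2 in 8 and Prickle1 in 10, whereas Rspo3, Frat1, Ccdc88c and Csnk1g2 kept theirs in 15. With offsets for GC content and length, Bcl9l was at -0.25 (adjusted p 0.303), Celsr2 at -0.14 (0.372) and Tle3 at -0.28 (0.0696), none of them past the threshold. With the same offsets Frat1 was at -0.54, Ccdc88c and Csnk1g2 each at -0.35, Rspo3 at -0.79 and Prickle1 at -0.27, all past it.

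**Figure D5:**
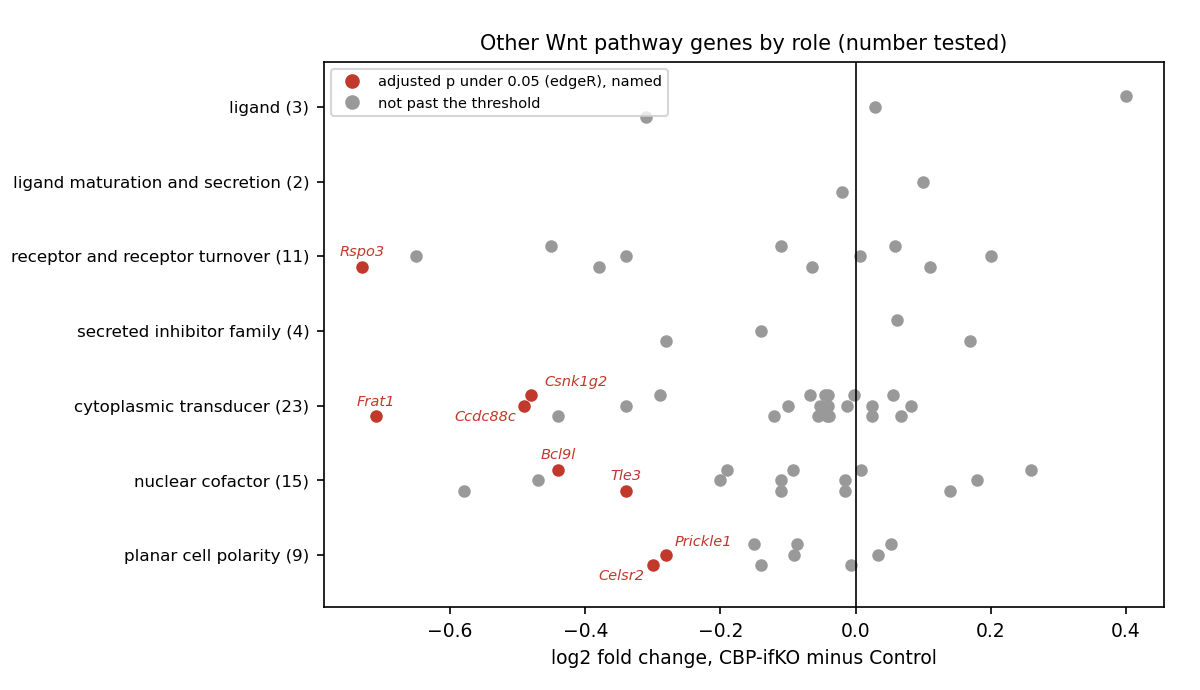
Log2 fold change (CBP-ifKO minus Control) of the 67 tested genes among the other Wnt pathway genes, with 1 point per gene and 1 line per role, and the number tested in parentheses. The 8 genes past the threshold are named in red and lie between -0.73 (Rspo3) and -0.28 (Prickle1), and the other 59, in grey, lie on both sides of 0.

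Hippocampal tissue holds many cell types that express Wnt pathway genes, and in bulk RNA fewer cells of a type and less RNA per cell cannot be told apart. Marker genes of CA1 pyramidal neurons were lower in CBP-ifKO, with 4 of 6 called (Wfs1, Pou3f1, Mpped1 and Fibcd1) and a summed level of 471.1 to 489.8 CPM in Control and 329.5 to 349.6 CPM in CBP-ifKO. The same was true of oligodendrocyte precursor markers, with 3 of 5 called (Pdgfra, Cspg4 and Gpr17) and sums of 144.7 to 155.0 CPM and 109.9 to 112.1 CPM. Meningeal fibroblast markers, at low levels, had no call among 4 tested, with sums of 15.6 to 21 CPM and 12.1 to 14.8 CPM. Their part in the fall of the ligands, Apc2, Dkk3 and Rspo3 was not tested.

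The sums of the other marker lists stood closer to Control. For CA3 pyramidal neurons the sum was at 105.4%, but most of it was Chgb, which rose (log2 fold change 0.25, adjusted p 0.018), while the other 6 CA3 markers had negative values and Cpne4 among them fell (-0.42, adjusted p 0.000715). The sums were at 97.7% for dentate granule cells, 92.0% for interneurons, 94.2% for astrocytes, 96.0% for oligodendrocytes, 94.7% for microglia, 92.6% for endothelial cells, 88.8% for mural cells, 94.5% for choroid plexus and 100.7% for thalamus. The choroid plexus and thalamus sums combined opposite moves, none of them called. Of the tested choroid plexus markers, Kl (119.2% of Control) and Kcnj13 (128.8%) were higher, Ttr (66.1%) and Clic6 (69.1%) lower. Ttr was at 4.07 CPM in CBP-ifKO replicate 1 and at 15.7 and 21.1 CPM in replicates 2 and 3. Of the tested thalamus markers, Rora (113.3%) and Slc17a6 (114.2%) were higher. Prkcd (86.5%), Plekhg1 (87.9%), Ntng1 (92.2%) and Zic1 (86.5%) were lower. Of the dentate list, C1ql2 (log2 fold change -2.22) and Tdo2 (-0.89) fell and Lct (0.71) rose. Of the interneuron list, Sst (-0.51, adjusted p 0.00154) and Slc32a1 (-0.38, adjusted p 0.045) fell, as did Vtn (-0.4, adjusted p 0.0122) of the mural list. No astrocyte, oligodendrocyte, microglia or endothelial marker was called, and none of the markers was at 0 in all libraries.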

How the data were processed

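Total RNA of hippocampus was sequenced in 3 Control and 3 CBP-ifKO samples, grouped by the labels. Per the labels and the study's methods, the authors trimmed single-end reads (Trim Galore 0.6.4), aligned them with STAR 2.6.1 to GRCm38 and counted them over Ensembl exons with Rsubread. The deposited values are raw counts per gene. Identifiers of 55230 genes (99.57%) matched GENCODE annotation of that build.

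Counts were tested with edgeR 4.0.16 in R 4.3.3 (quasi-likelihood F-test, TMM, filterByExpr with minimum count 10 and minimum total 15), fitted on the whole table with Benjamini-Hochberg adjustment over 17981 genes and a threshold of 0.05. The SE of a log2 fold change is its absolute value over the square root of F. The fit was tested on simulated counts. The members and lists were chosen with earlier results of these data known. Values in every library are given for members past the threshold or with groups that do not overlap, and for the established targets Axin2, Lef1, Nkd1 and Nkd2. Of the other pathway genes, those past the threshold are named, and further genes were chosen after their values were seen. Alternatives were DESeq2 1.42.0, limma-voom (limma 3.58.1), RLE factors, library totals, other filters, a replicate block, offsets for GC content and length, and each library left out. No 2 libraries of the same group agreed within sampling noise.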

Additional observations from a re-analysis of the deposited data

How the results depend on the processing

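Across 15 alternatives, Wnt4, Wnt7b and Wnt9a kept their calls in all 15. With GC and length offsets their log2 fold changes were -1.52, -0.57 and -1.35, against -1.6, -0.75 and -1.44 in the fit reported. Wnt2 kept its call in 12 of the 14 that gave an adjusted p (DESeq2 gave none), Dkk3 in 13 and Apc2 in 11. The number of members called lower was 5 to 7 with all libraries in and 4 to 8 with 1 left out, namely 8 without Control replicate 2 and 4 without either of CBP-ifKO replicates 1 and 3, and none was called higher in any. The median log2 fold change of the members was -0.055 with library totals alone, where that of all genes was 0.0425, -0.063 with GC and length offsets, -0.057 with the block added to these, against -0.10 in the fit reported, and -0.16 to -0.079 with 1 library left out. Deviations from the group means correlated at 0.0769, 0.0369 and 0.00216 between same-numbered libraries, which were therefore not treated as pairs. With the replicate block 6 members and 8 other pathway genes were called lower, the same counts as without it. Of the other pathway genes, 4 were called lower with library totals alone and 4 to 8 with 1 library left out (4 when the one left out was replicate 3 of Control or replicate 2 or 3 of CBP-ifKO). When the replicate block was combined with offsets for GC content and length, 3 of them were called higher (Chd8, Ep300 and Celsr3). Over all genes, 667 were called lower and 514 higher with library totals alone, 1319 and 543 with the block and offsets together, and 498 genes in all were called without replicate 2 of CBP-ifKO, 526 without its replicate 3 and 546 without Control replicate 3.

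Members near 0 changed sign under some alternatives, and none of these 14 was past the threshold in any. With library totals alone, log2 fold changes were 0.031 (Fzd7), 0.035 (Lrp6), 0.041 (Lgr4) and 0.03 (Apc). GC and length offsets gave 0.0093 (Fzd2), 0.034 (Fzd7), 0.065 (Dvl1), 0.051 (Dvl2) and 0.079 (Gsk3a), and with the replicate block added 0.034 (Fzd7), 0.067 (Dvl1), 0.049 (Dvl2) and 0.079 (Gsk3a). Lgr4 was at 0.0017 with DESeq2, 0.0019 with RLE factors and 0.0039 with no filter. With 1 library left out, values ran from -0.18 to 0.5 for Wnt5b, -0.48 to 0.092 for Fzd2, -0.071 to 0.11 for Fzd4, -0.17 to 0.084 for Fzd7, -0.13 to 0.25 for Fzd8, -0.044 to 0.014 for Lrp6, -0.039 to 0.033 for Lgr4, -0.18 to 0.033 for Dvl1, -0.13 to 0.044 for Dvl2, -0.04 to 0.15 for Dvl3, -0.085 to 0.03 for Apc, -0.17 to 0.0084 for Gsk3b and -0.24 to 0.089 for Sfrp1. The cause of these changes was not tested.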
